A study of Homo sapiens with 47 samples.

Results

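Circulating tumor cells (CTC) of a single mouse, mouse 5546, were compared in 2 sets. Their library names carry the letter c or the letter s, and neither the labels nor the paper's methods say what the letters stand for. The CTCs were assigned to the sets by these names alone. This gave 9 cells for 5546-c and 8 cells for 5546-s, together 17 of the 43 cells with expression values. The choice of these cells and of the gene lists was made with earlier results of these data known. The remaining 26 cells are 20 CTCs of 4 other mice and 6 cultured cells. All CTCs are of the MDA-MB-231-LM2 (LM2) line, a GFP-labeled and highly metastatic derivative of an established human triple-negative breast cancer (TNBC) line, grown in the mammary fat pad of immunodeficient NOD/SCID gamma (NSG) mice. Blood was drawn from the heart once the primary tumor had grown, CTCs were enriched by size, stained alive for CD45 and DNA, and picked 1 by 1 for their GFP. Full-length cDNA was made by SMARTseq2, which has no molecular identifiers. The labels name no treatment, all libraries carry the same batch label, and the number of amplification cycles was set for each cell. A further 2 libraries of this mouse, 5546-c3 and 5546-s3, are marked in the labels as left out of the processed data and have no values here.

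Because all 17 cells come from 1 mouse, each letter is 1 sample and no test between the letters is possible. Differences are therefore described by a fixed rule of size, and cells of a letter are given by their lowest, median and highest values. Expression is given as normalized counts, reads per gene after division by a size factor for each cell. A gene was considered when its mean normalized count reached 8 in either letter. It was called higher in a letter when the means differed at least 4-fold after adding 1 to both, still did so without the highest cell of that letter, and at least 50% of the cells of that letter had a read. Since the 5546-s cells hold fewer genes, each comparison was repeated with all cells thinned at random to 644520 reads (reads equalised) and with all cells thinned to 4656 genes (genes equalised).

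Dividing cells switch on a set of genes late in the cell cycle, between DNA replication and the end of mitosis. CDK1 and cyclin B1 (CCNB1) form the kinase that starts mitosis. The kinases AURKA, AURKB and PLK1 build the spindle, and CDC20 and UBE2C work with the anaphase-promoting complex that ends it. Many of their promoters hold CCAAT boxes, through which they are activated, and a cell cycle homology region, often written TTTGAA, through which they are held off in resting cells. Tumor cells in blood can be dividing or resting, so this gene set (the G2/M list, 54 genes) was described beside a list for the start of replication (G1/S, 43 genes) and lists for other programs of these cells.

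Among lists with at least 15 considered members, the G2/M list had the largest share of members called. As deposited, 24 of its 52 considered members were called higher in 5546-c and 0 in 5546-s. Over all 7868 genes considered, 9.33% were called higher in 5546-c and 0.241% in 5546-s. With genes equalised, 17 of 52 members were called higher in 5546-c and 0 in 5546-s, while the share over all 8674 genes considered was 3.52% for 5546-c and 1.15% for 5546-s. The median log2 ratio of 5546-c over 5546-s was 2.21 for the members as deposited and 1.93 with genes equalised, beside 0.31 and 0.29 for all genes considered. With reads equalised, 20 of 53 members were called higher in 5546-c, against 9.56% of all 8537 genes considered, and 0 in 5546-s, against 0.328%.

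Promoters of 4 members are shown because motifs of this kind are common to the list and stand both in members that were called and in members that were not. The 4 were chosen after their values were seen. They are the 250 bases before the RefSeq start on GRCh38.p14, 5′ to 3′ on the strand of the gene. Capitals mark the letters CCAAT and TTTGAA on either strand (ATTGG and TTCAAA on the reverse). CDC20 lies at chr1:43358731-43358980 on the plus strand, PLK1 at chr16:23678639-23678888 on the plus strand, MKI67 at chr10:128126424-128126673 on the minus strand and TOP2A at chr17:40417897-40418146 on the minus strand. CDC20 and PLK1 were called higher in 5546-c, and MKI67 and TOP2A were not.
CDC20: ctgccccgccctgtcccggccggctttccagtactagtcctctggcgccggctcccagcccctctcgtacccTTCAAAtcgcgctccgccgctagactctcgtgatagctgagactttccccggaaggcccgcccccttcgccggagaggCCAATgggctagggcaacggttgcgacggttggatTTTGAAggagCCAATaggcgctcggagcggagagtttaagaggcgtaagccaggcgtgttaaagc
PLK1: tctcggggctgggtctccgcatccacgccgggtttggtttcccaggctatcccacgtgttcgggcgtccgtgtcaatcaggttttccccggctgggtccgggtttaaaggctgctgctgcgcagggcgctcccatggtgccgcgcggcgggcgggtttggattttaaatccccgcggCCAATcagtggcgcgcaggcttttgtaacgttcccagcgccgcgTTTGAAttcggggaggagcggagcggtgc
MKI67: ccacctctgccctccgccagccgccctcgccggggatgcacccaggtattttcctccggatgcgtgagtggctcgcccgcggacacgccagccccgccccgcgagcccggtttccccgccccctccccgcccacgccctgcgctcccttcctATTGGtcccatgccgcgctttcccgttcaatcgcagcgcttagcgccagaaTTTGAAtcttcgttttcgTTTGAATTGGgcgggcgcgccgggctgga
TOP2A: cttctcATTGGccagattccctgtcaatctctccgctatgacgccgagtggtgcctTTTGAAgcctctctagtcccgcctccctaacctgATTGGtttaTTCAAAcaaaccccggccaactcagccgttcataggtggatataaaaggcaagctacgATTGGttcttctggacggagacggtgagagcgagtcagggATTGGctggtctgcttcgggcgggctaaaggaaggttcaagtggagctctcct
In MKI67, the second TTTGAA runs into an ATTGG with shared letters. Of 46 members with a promoter of this length in the reference, 33 (71.7%) held CCAAT, 24 (52.2%) held TTTGAA and 21 (45.7%) held both. Of 27305 promoters of all genes, 33.0% held CCAAT, 13.6% held TTTGAA and 4.85% held both. Of 7092 promoters of genes considered as deposited or with genes equalised, the shares were 35.7%, 8.39% and 3.57%. Both motifs stood in 13 of the 20 promoters of members called higher in 5546-c and in 8 of the 26 promoters of the others. MKI67 and TOP2A are among these 8, so they are not typical of the members not called. A match of letters is a description and not evidence of binding.

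Reads on the G2/M list differed between cells of the same letter. In 5546-c the list took 0.195% of the reads of the lowest cell, a median of 1.00% and 1.85% of the highest cell. In 5546-s it took 0.0417%, a median of 0.235% and 1.39%. The letters overlapped. Of the 5546-s cells, s1 (1.39%) and s7 (1.17%) lay among the 5546-c cells, and the other 6 lay between 0.0417% and 0.397%. Of the 5546-c cells, c8 (0.195%) and c6 (0.294%) lay among those 6. The CTCs of the other 4 mice had a median of 0.791%, and the cultured cells had a median of 1.56%.

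The number of G2/M genes with a read also differed between the letters, and c6 (50 genes) lay with the other cells of 5546-c here. Among the 5546-c cells, 8 held 49 to 54 of the 54 genes and c8 held 30. Among the 5546-s cells, s1 held 43, s7 held 40 and the other 6 held 10 to 20. Over the 17 cells the number of G2/M genes went with the number of all genes in the cell (Spearman's ρ = 0.803). Within 5546-c ρ was 0.627 (9 cells) and within 5546-s it was -0.07 (8 cells). These are descriptions over cells of 1 mouse. With genes equalised, the 5546-c cells held 16 to 47 with a median of 39, and the 5546-s cells held 8 to 42 with a median of 11.5.

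**Figure D1:**
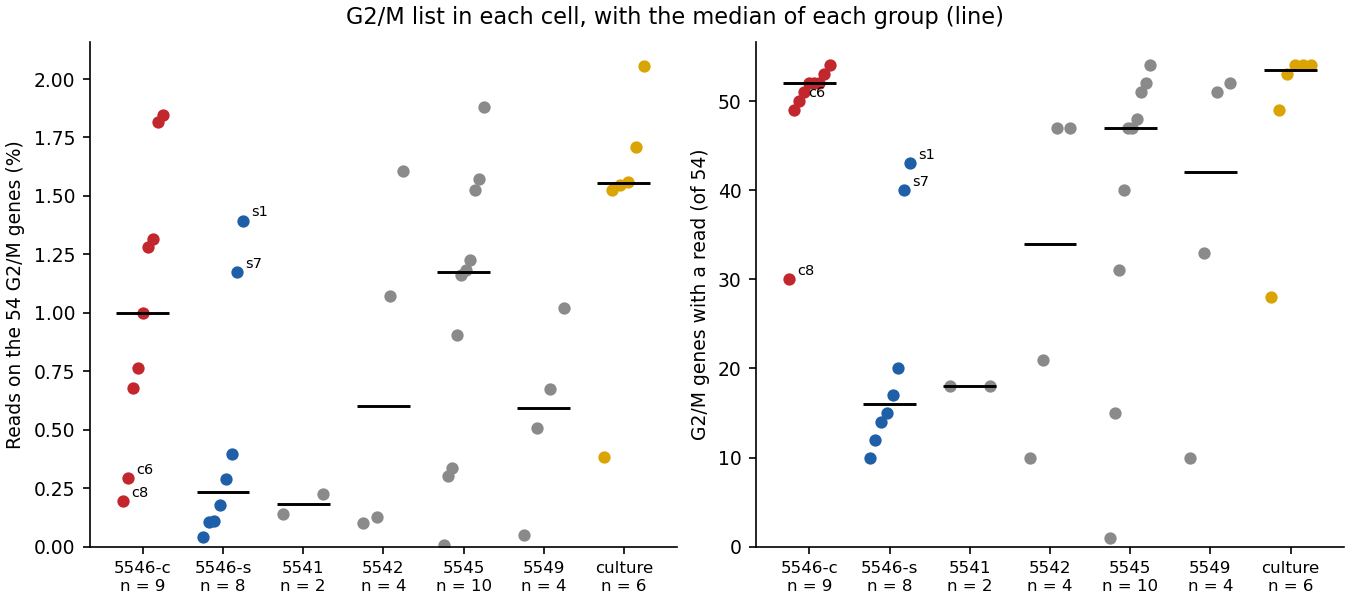
Share of reads on the 54 genes of the G2/M list (left, in percent) and number of those genes with at least 1 read (right) in each cell, 1 point per cell, for both letters, the 4 other mice and cultured LM2 cells, with the median of each group as a line. Cells s1 (1.39% and 43 genes) and s7 (1.17% and 40 genes) lie apart from the other 6 cells of 5546-s, and c8 (0.195% and 30 genes) lies apart from most cells of 5546-c.

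The same gap was seen against genes of the same level in culture. The 26 G2/M genes between the quartiles of the list had a mean of 70.8 to 329 CPM (reads scaled to the same total in each cell) in cultured LM2 cells, and 1965 other genes lay in that range. Cells of 5546-c had a read for a median of 96.8% of these other genes, and 8 of them had a read for at least 25 of the 26 G2/M genes. Cell c8 had a read for 90.1% of the other genes but for 11 of the 26 (42.3%). Cells of 5546-s had a read for a median of 73.3% of the other genes. Cells s1 and s7 had a read for 21 of the 26 G2/M genes each (80.8%), above their 73.7% and 56.8% of other genes. The other 6 had a read for 4 to 7 of the 26, and their G2/M share lay 30.1 to 60.3 percentage points below that of the other genes.

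A gap of more than 20 points was used to count cells, a limit set after the values were seen. It was passed by 1 of 9 cells of 5546-c and by 6 of 8 cells of 5546-s, which describes these cells and tests nothing. It was also passed by 10 of 20 CTCs of the other 4 mice (4 of 10 in mouse 5545, 2 of 4 in 5542, 2 of 4 in 5549 and 2 of 2 in 5541) and by 1 of 6 cultured cells. With genes equalised the count was 2 of 9 in 5546-c, where c6 passed at a gap of 21.7 points, and 6 of 8 in 5546-s.

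Of the members, AURKA, CDK1 and KIF2C had the largest log2 ratios. CDK1 (chr10:60778331-60794852 on GRCh38, plus strand) had 0.816, 49.1 and 623 normalized counts as the lowest, median and highest cell of 5546-c and 0, 0 and 12.2 in 5546-s. Only s1 (12.2) and s7 (2.06) of the 5546-s cells had any read of it. Summed over cells, 2969 reads of 5546-c and 26 of 5546-s were on CDK1, a ratio of 74.8 relative to all reads of the letter (95% counting interval 51.0 to 115). AURKA (chr20:56369389-56392337, minus strand) had 0, 47.5 and 412 normalized counts in 5546-c. It had no read in 7 of the 8 cells of 5546-s and 2.07 in s2, which is 3 reads, and the ratio of summed reads was 414 (142 to 2012). KIF2C, a kinesin that takes microtubules apart, had 675 reads in 7 cells of 5546-c and 0 in 5546-s. Against a floor of 3 reads over the letter, its ratio relative to all reads was 147. Intervals and floors, here and below, cover counting error only. They leave out reads copied in amplification and any genes missed in 5546-s cells, so they do not bound the difference between the letters.

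CCNB1 (chr5:69167135-69178245, plus strand) had 0, 283 and 2132 normalized counts in 5546-c and 0, 0 and 98.8 in 5546-s. Cells s1 (98.8) and s7 (81.0) held nearly all of its reads in 5546-s, and c8 had none. CDC20 had 0, 108 and 357 in 5546-c and 0, 0 and 33.2 in 5546-s, where its only reads were in s8 and s5 and none in s1 or s7. PLK1 had 2.59, 38.2 and 470 in 5546-c and 0, 0 and 64.8 in 5546-s, with reads in s1 and s5 alone. All 3 were also called with genes equalised, with log2 ratios of 3.34, 4.57 and 2.86.

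The 4 members with the highest mean over the 17 cells were not called. UBE2C had 88.9, 310 and 2368 normalized counts in 5546-c and 0, 48.4 and 507 in 5546-s (log2 ratio 2.22). PTTG1, which codes for securin, had 2.45, 589 and 1619 against 0, 108 and 445 (log2 ratio 1.85). HMGB2, a chromatin protein also made outside mitosis, had 53.9, 569 and 1602 against 80.7, 213 and 563 (log2 ratio 1.34). TUBB4B, a β-tubulin of many cell types, had 42.8, 978 and 3068 against 0, 686 and 2988 (log2 ratio 0.16, and -0.26 with genes equalised). For all 4 the median of 5546-s lay below that of 5546-c, and the letters overlapped.

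For 3 members that were not called and were chosen after their values were seen, the median of 5546-c lay above that of 5546-s, and s1 and s7 held most reads of 5546-s. MKI67 (chr10:128096659-128126423, minus strand), the gene of the Ki-67 antigen, had 0, 167 and 525 normalized counts in 5546-c and 0, 0.437 and 712 in 5546-s. Its highest value of all 17 cells was in s7 (712), s1 had 396, and no other cell of 5546-s was above 1.91. TOP2A, which untangles replicated DNA, had 2.45, 97.5 and 586 in 5546-c and 0, 0.290 and 307 in 5546-s, with 307 in s1, 152 in s7 and 41.0 in s9. TPX2, an activator of AURKA, had 11.4, 216 and 466 in 5546-c and 0, 9.36 and 345 in 5546-s, with 345 in s1, 242 in s7 and 130.5 in s9. Relative to all reads, summed reads of MKI67 were 1.30 times as high in 5546-c (1.23 to 1.38) and those of TOP2A 1.65 times (1.52 to 1.79). Both ratios rest on s1 and s7 for the reads of 5546-s. Of the members called higher in 5546-c, some had reads in these 2 cells too, such as BIRC5, an inhibitor of apoptosis that also acts in mitosis, with 169 in s1 and 73.4 in s7, and AURKB with 58.9 and 112.

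**Figure D2:**
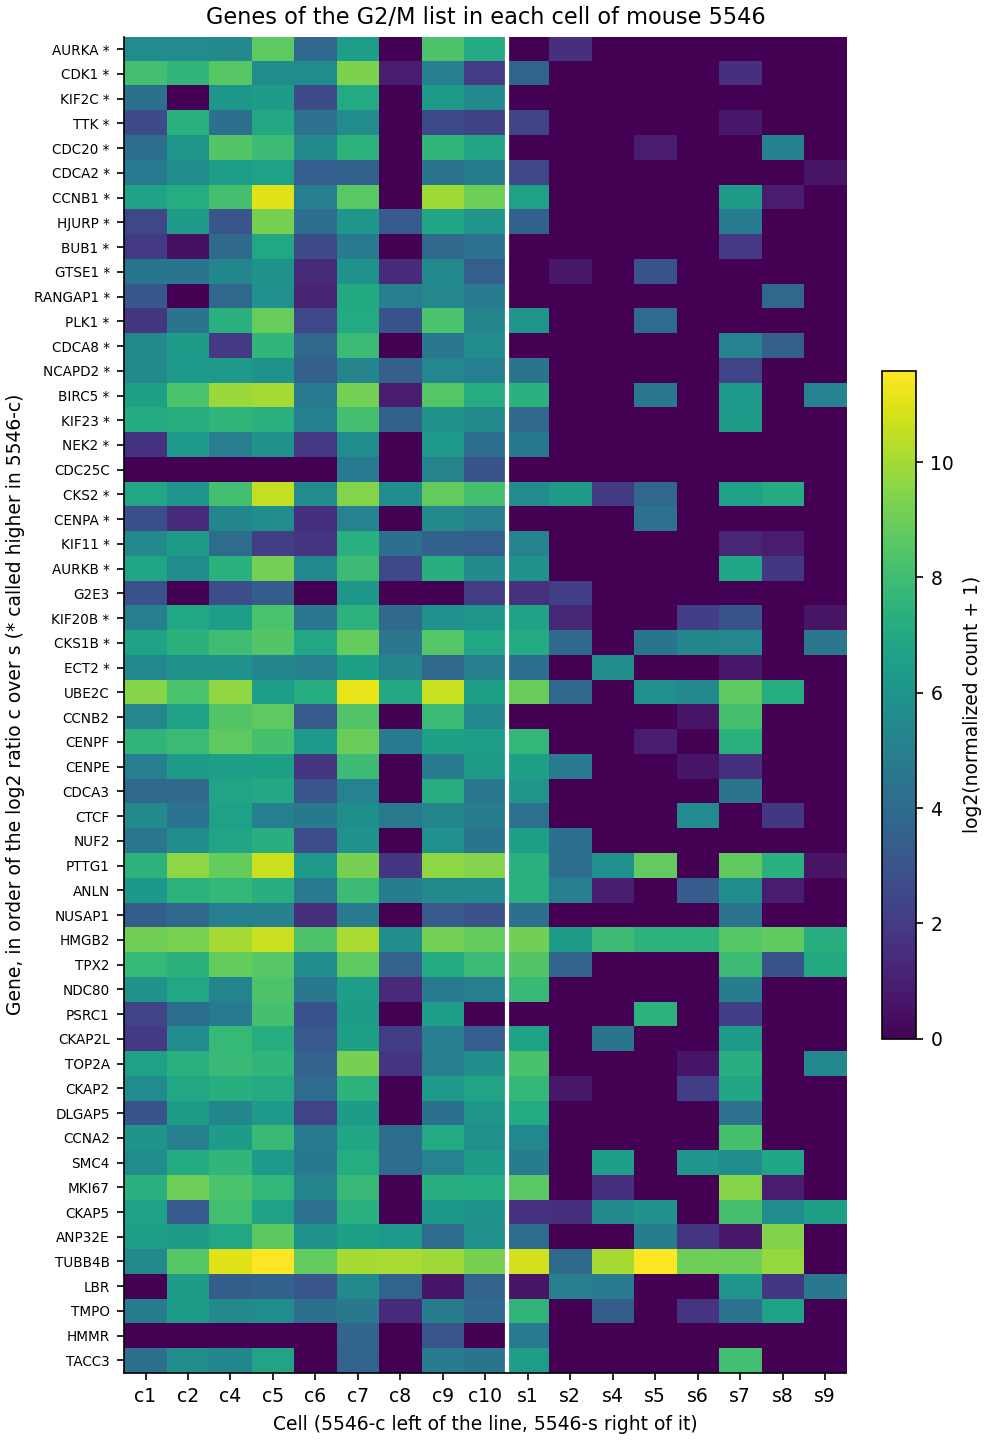
Level of each of the 54 genes of the G2/M list (rows, in order of the log2 ratio of 5546-c over 5546-s) in the 17 cells of mouse 5546 (columns), as log2(normalized count + 1), with genes called higher in 5546-c marked by a star. Most of the list is at or near 0 in 6 cells of 5546-s and low in c8, and s1 and s7 hold most of the reads of 5546-s. The order of the rows follows from the same values.

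The G1/S list was called at a share near that of all genes. Of its 37 considered members, 5 (13.5%) were called higher in 5546-c and 0 in 5546-s, and 2 of 40 with genes equalised, beside 9.33% and 3.52% over all genes. The medians were 0.28 and 0.03 on the log2 scale. The list took 0.0946% to 0.449% of reads in 5546-c (median 0.214%) and 0.0335% to 0.676% in 5546-s (median 0.165%). The 5 members called were UNG, CDCA7, DTL, CDC45 and TIPIN. UNG, which removes uracil from DNA, had 0, 24.5 and 77.0 normalized counts in 5546-c, and its only reads in 5546-s were 3.23 in s9. PCNA, the sliding clamp of replication, was not called and had 85.3, 113 and 547 in 5546-c and 0, 74.9 and 1490 in 5546-s. Its highest value of all 17 cells was in s8, whose G2/M share was 0.291%.

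Replication-dependent histone mRNAs are made in S phase and mostly lack a poly(A) tail, so the oligo-dT priming used here samples them poorly. Of 7 considered members of that list, H2BC4 and H2BC5 (28.6%) were called higher in 5546-c, beside 9.33% over all genes. None was called with genes equalised. The median log2 ratio of 5546-c over 5546-s was 2.68 for the considered members as deposited and 2.34 with genes equalised. Over all genes considered it was 0.31 and 0.29. H4C3 had 60.9, 302 and 1402 normalized counts in 5546-c and 50.5, 441 and 4745 in 5546-s, and the highest cell was s1. H3C2 had no read in the 9 cells of 5546-c, and 93.5 in s1, 36.4 in s7 and 0.956 in s4. The 2 cells of 5546-s with a G2/M share above 1% were thus also the cells with most H3C2.

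Over all genes considered, those of the cell cycle included, 734 genes were called higher in 5546-c and 19 in 5546-s as deposited. Of the 734, 658 were also called with reads equalised and 212 with genes equalised, and 203 were called in all 3 settings. Of the 19, 8 were called in all 3. The 203 genes included 14 of the G2/M list and 2 of the G1/S list, 26 were on any of the 40 lists, 201 were protein-coding and 21 had no read in any cell of 5546-s. Their median mean was 36.8 normalized counts in 5546-c and 2.01 in 5546-s. No cell of 5546-s reached the lowest cell of 5546-c for 31 genes (0.394% of those considered), and the reverse held for 0. With genes equalised 5 genes (0.0576%) were separated in that way, and 2 of the 31 remained among them.

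The largest log2 ratios among the 203 belonged to AURKA, KNSTRN, ACTL6A, APOBEC3B, CDK1, RAB38, TRIM59, ENTPD6, KIF2C, RABEPK, TNFAIP1 and ZDHHC6. KNSTRN (chr15:40382721-40394288, plus strand), a kinetochore and spindle protein, is not on the G2/M list. It had 0, 37.5 and 297 normalized counts in 5546-c and no read in 5546-s, a ratio of 303 against the floor. APOBEC3B (chr22:38982347-38992804, plus strand), a cytidine deaminase that edits DNA, had 0, 33.7 and 231 in 5546-c. It had no read in 5546-s, a ratio of 246 against the floor. It belongs to a family of similar genes next to each other on chromosome 22, and only uniquely mapped reads were counted. ENTPD6, a nucleotidase, had 1.57, 28.3 and 218 in 5546-c and no read in 5546-s, a ratio of 175 against the floor. KNSTRN and APOBEC3B were absent from c8 as well, and ENTPD6 had reads in all 9 cells of 5546-c.

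ACTL6A, a subunit of chromatin remodelling complexes, was separated between the letters with 2.79, 76.7 and 235 normalized counts in 5546-c and 2 reads in 5546-s, both in s2 (1.38). The ratio of summed reads was 418 (115 to 3451). RABEPK, a binding partner of the small GTPase RAB9, was separated too, with 2.74, 47.1 and 69.0 in 5546-c and 0.539 in s9 alone. RAB38, a GTPase of melanosomes and related organelles, had 0, 24.1 and 447 in 5546-c and at most 1.06 in 5546-s. Unlike AURKA and KNSTRN, ACTL6A (76.7) and RABEPK (65.3) were at the level of the other 5546-c cells in c8. ZDHHC6, a palmitoyltransferase, had 0, 22.8 and 131 in 5546-c and no read in 5546-s. TRIM59 (0, 43.8 and 211) and TNFAIP1 (0.798, 26.9 and 95.9) had 1 read each in 5546-s.

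Genes called higher in 5546-s rested on a part of its cells. The 8 called in all 3 settings were AMDHD2, ALKBH4, SLC25A45, RAB27B, BMP4, CCDC68, PPP2R5A and WFS1. BMP4 (chr14:53949736-53958761, minus strand), a secreted ligand of the TGF-β superfamily, had 2.09, 4.90 and 92.1 normalized counts in 5546-c and 0, 119 and 790 in 5546-s. It was high in s4 (790), s5 (670), s9 (541) and s6 (207), at 31.5 in s8, and under 1 in s1, s2 and s7. Relative to all reads, summed reads were 8.48 times as high in 5546-s (7.74 to 9.31), and the letters overlapped. WFS1, a protein of the endoplasmic reticulum, had 0, 0 and 37.1 in 5546-c and 0, 36.0 and 87.4 in 5546-s. CCDC68 had 0, 0.523 and 11.2 in 5546-c and 0, 42.5 and 78.1 in 5546-s, with reads in 5 cells of each letter. PPP2R5A, a regulatory subunit of phosphatase 2A, had 0, 4.90 and 20.6 against 0, 12.1 and 238. AMDHD2, ALKBH4, SLC25A45 and RAB27B had reads in 4, 4, 4 and 5 of the 8 cells of 5546-s, and their highest values were 197, 149, 37.7 and 96.5.

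Programs expressed at high levels in LM2 cells differed little. None of 79 considered cytosolic ribosomal proteins, 64 nuclear subunits of oxidative phosphorylation, 41 actin cytoskeleton genes, 17 S100 and annexin genes or 15 candidate CTC surface markers was called in either direction. Ribosomal proteins took 8.28% to 16.4% of reads in 5546-c (median 11.1%) and 9.03% to 15.0% in 5546-s (median 11.0%). Glycolysis genes took a median of 3.45% and 3.41%, and HK1 and HK2, which start glycolysis, were 2 of 18 called higher in 5546-c (11.1%, near the 9.33% over all genes), HK1 with genes equalised as well. LM2 mesenchymal markers took 1.5% to 4.12% (median 2.91%) in 5546-c and 1.68% to 4.47% (median 3.04%) in 5546-s. Of 23 considered, 1 (LOX, 4.35%, beside 9.33% over all genes) was called higher in 5546-c. With reads equalised it was 2 of 23, and with genes equalised 0. VIM, the intermediate filament of mesenchymal cells, had 4159, 8351 and 15505 normalized counts in 5546-c and 2893, 10841 and 20688 in 5546-s.

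**Figure D3:**
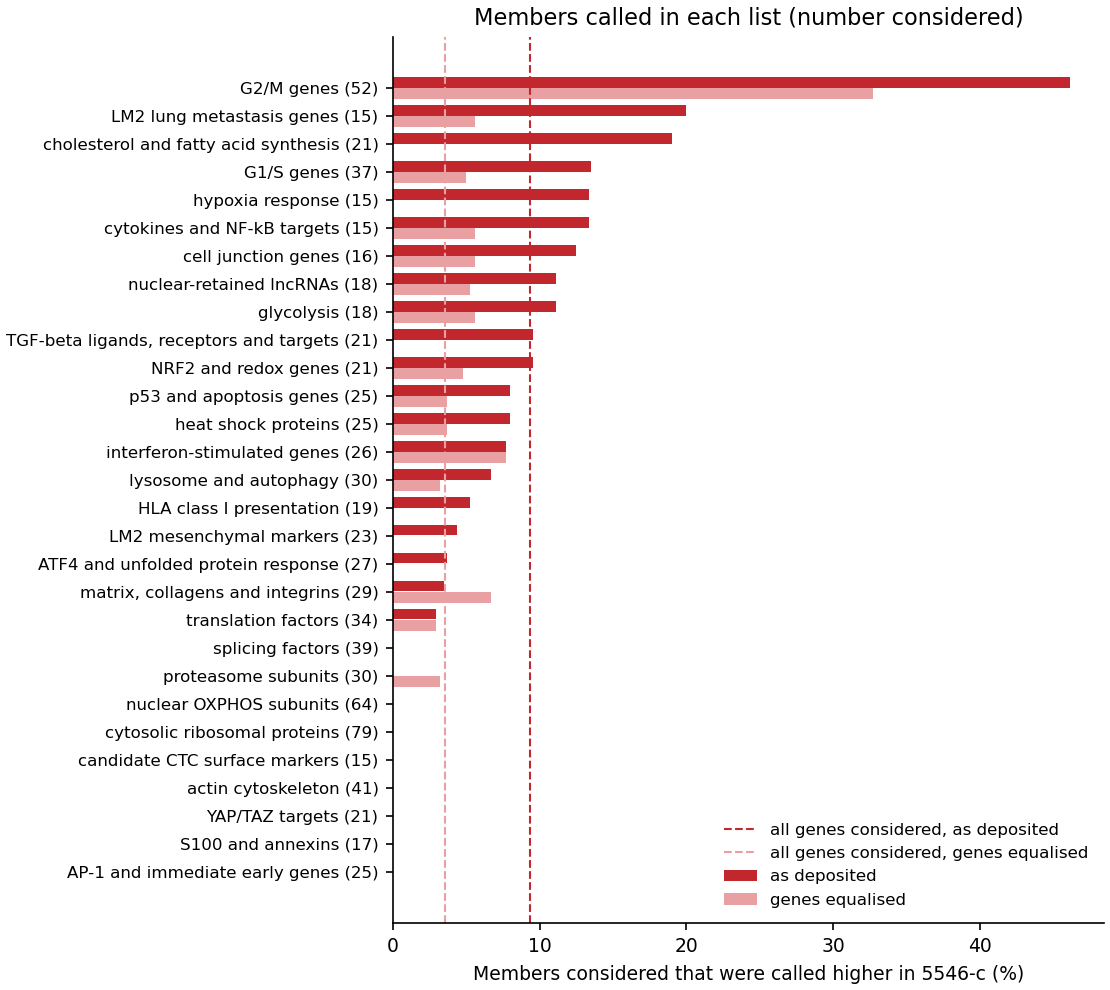
Percent of the considered members of each gene list that were called higher in 5546-c as deposited and with genes equalised, for lists with at least 15 considered members (number in brackets), with the percent over all genes considered (9.33% and 3.52%) as dashed lines. The G2/M list stands at 46.2% as deposited and 32.7% with genes equalised, and no other list shown is above 20%.

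Other lists held 4 calls or fewer as deposited. Over all genes considered, 9.33% were called higher in 5546-c as deposited and 3.52% with genes equalised. Cholesterol and fatty acid synthesis had 4 of 21 called higher in 5546-c but 0 of 22 with genes equalised. LM2 lung metastasis genes had 3 of 15 (VCAM1, KYNU and NEDD9) and 1 of 18 with genes equalised. KYNU, an enzyme of tryptophan breakdown, had 0, 15.4 and 38.3 normalized counts in 5546-c. It had no read in 5546-s, a ratio of 65.3 against the floor. The cytokine IL6 had 0, 11.9 and 96.8 in 5546-c and no read in 5546-s, a ratio of 81.5 against the floor. IL6 was not called with genes equalised. Interferon-stimulated genes had 2 of 26 called higher in 5546-c (OAS1 and STAT2). TGF-β ligands, receptors and targets had 2 of 21 called higher in 5546-c (TGFBR1 and SMAD4) and 1 in 5546-s (BMP4). As deposited, both shares for 5546-c (7.69% and 9.52%) lay near that over all genes. With genes equalised, 2 of 26 (7.69%, above the 3.52% over all genes) and 0 of 23 were called higher in 5546-c. With reads equalised it was 4 of 26 (15.4%) and 2 of 23 (8.70%), beside 9.56% over all genes. The median log2 ratio of the interferon list was 0.78 as deposited and 1.07 with reads equalised, and higher again with genes equalised. Over all genes considered it was 0.31, 0.28 and 0.29. The interferon list took a median of 0.205% of reads in 5546-c and 0.190% in 5546-s. IFIT2 had 3350 normalized counts in s4 and at most 0.874 in the other cells of 5546-s, and TIMP3 had 13462 in s4 and 3627 in s5 against 2.09 to 1109 in 5546-c. Of the published CTC surface markers, EGFR had 5.71, 23.4 and 137 against 0, 15.8 and 56.5, EPCAM had reads in 3 cells of 5546-c and in 0 of 5546-s, and ERBB2 had reads in 5 and 3 cells.

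As deposited and with reads equalised, 5546-s cells had a read for a smaller median share of genes at every level in culture. Whether the other genes were off or not captured was not tested. Of the 22139 genes with a read in any of the 17 cells, 3928 had a read in all 9 cells of 5546-c and 1030 in all 8 cells of 5546-s. Genes with a read in all cells of 5546-c and in none of 5546-s numbered 11 as deposited, 12 with reads equalised and 0 with genes equalised. Of 1280 genes at 100 to 300 CPM in cultured cells, a median of 97.7% (91.3% to 99.5%) had a read in a 5546-c cell and 76.9% (50.9% to 86.4%) in a 5546-s cell. At equal reads the values were 97.4% and 75.6%. At equal genes they were 82.6% (74.4% to 85.1%) and 69.0% (50.9% to 74.8%), while 2030 genes at 0.3 to 1 CPM had a read more often in 5546-s (7.09% against 2.86%). The same held for medians at 1 to 3 CPM (10.3% in 5546-s against 6.94%) and at 3 to 10 CPM (17.1% against 15.5%). The equal number of genes in a 5546-s cell was thus made of more low-level genes of culture and fewer high-level ones. To reach it, 5546-c cells were thinned to 25210 to 49292 reads and 5546-s cells kept 71914 to 858214.

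**Figure D4:**
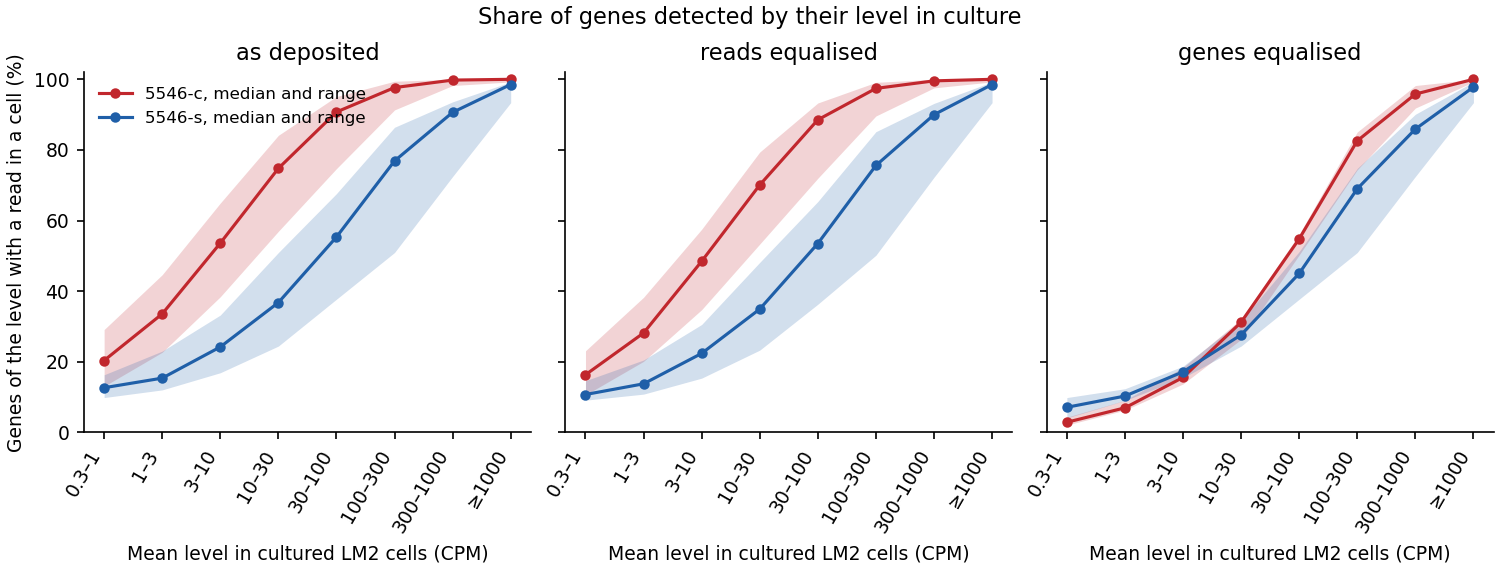
Percent of genes with at least 1 read in a cell, by their mean level in cultured LM2 cells (CPM), as the median and range over the 9 cells of 5546-c and the 8 cells of 5546-s, as deposited, with reads equalised and with genes equalised. At 100 to 300 CPM the medians are 97.7% and 76.9% as deposited and 82.6% and 69.0% with genes equalised.

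Cells of 5546-s were also less alike. Spearman's ρ between pairs of cells over the genes considered had a median of 0.569 within 5546-c (36 pairs, 0.449 to 0.695), 0.345 within 5546-s (28 pairs, 0.277 to 0.452) and 0.420 between the letters (72 pairs). With genes equalised the medians were 0.452, 0.346 and 0.381. Pairs share cells and genes, so these are descriptions.

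**Figure D5:**
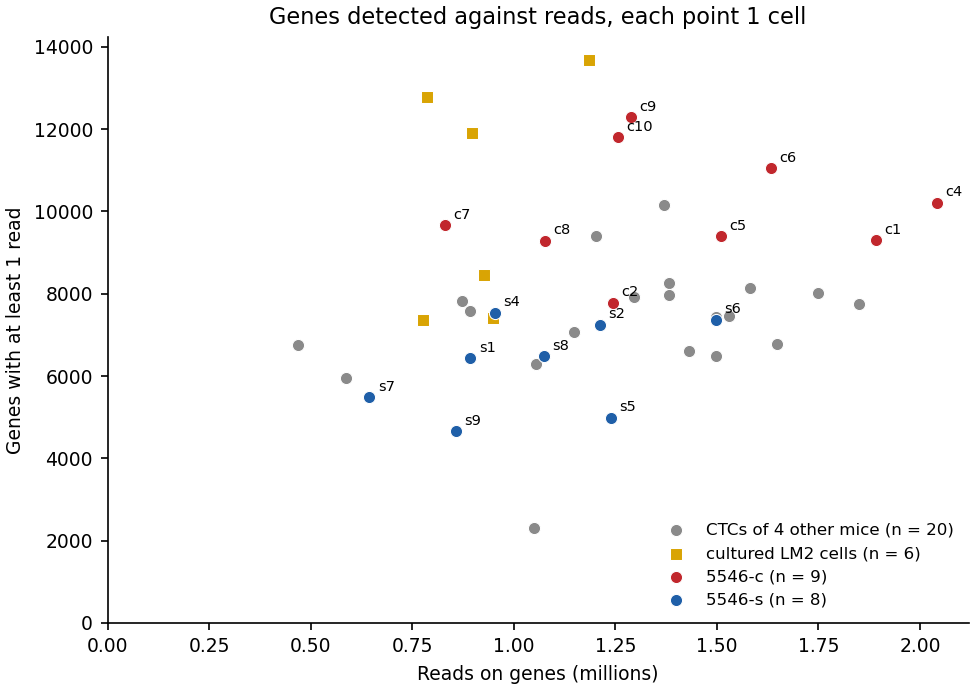
Genes with at least 1 read against reads on genes in each cell of 5546-c, 5546-s, the other 4 mice and culture, 1 point per cell. The 9 cells of 5546-c lie between 7782 and 12299 genes and the 8 cells of 5546-s between 4656 and 7538, at overlapping numbers of reads.

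The other mice give a scale for these differences. Against the 10 CTCs of mouse 5545, 712 genes (9.18%) were higher in 5545 than in 5546-s and 196 (2.53%) higher in 5546-s. Against 5546-c, 72 genes (0.92%) were higher in 5545 and 245 (3.13%) higher in 5546-c. Of the G2/M list, 19 of 51 considered members were called higher in 5545 than in 5546-s, and 0 of 53 were called in either direction between 5545 and 5546-c. The 2 comparisons share the CTCs of 5545, and mouse and letter cannot be told apart in them. For the 203 genes called in all 3 settings, the mean lay nearer to 5546-c than to 5546-s for 189 in mouse 5545, 156 in 5542, 141 in 5549, 122 in 5541 and 200 in culture. These genes were selected for their low values in 5546-s, so the counts are a description. For the 52 G2/M genes the numbers were 41, 24, 16, 7 and 50.

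Quality and cell identity were compared between the letters. Reads on genes were 831683 to 2041333 in 5546-c and 644520 to 1497708 in 5546-s. Mitochondrial genes took more than 20% of reads in s7 (23.9%), s9 (22.7%) and c10 (21.5%), and 4.28% to 16.9% in the others. Without these 3 cells, 794 genes were called higher in 5546-c and 46 in 5546-s, and 26 of 52 G2/M genes were called higher in 5546-c. Of 10 markers of LM2 tumor cells, all had a read in every 5546-c cell and 9 or 10 in every 5546-s cell, and they took 1.55% to 3.50% and 1.72% to 4.39% of reads.

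Reads on blood cell genes were found in both letters. The blood was that of mice, and reads were aligned to the human genome alone. Whether reads on these genes came from mouse or human RNA was not tested. Of 10 erythroid markers, 3 to 8 had a read in a 5546-c cell and 3 to 5 in a 5546-s cell, with 0.0359% to 0.657% and 0.0762% to 0.851% of reads and SLC4A1 and HEMGN at 0 in 5546-s. HBB, the adult β-globin, had 170, 1417 and 3909 normalized counts against 498, 2036 and 2922, and no cultured cell had a read of any of the 10. Of 11 neutrophil markers, 1 to 8 and 1 to 7 had a read, with 0.00289% to 0.0553% of reads in 5546-c (median 0.00563%) and 0.00444% to 0.0959% in 5546-s (median 0.0328%), and the median log2 ratio of 5546-c over 5546-s was -2.64 over the 5 markers of the neutrophil list that were considered. MPO and CAMP were at 0 in 5546-s and FCGR3B and CAMP at 0 in 5546-c. S100A9 had 14.0, 53.8 and 326 against 45.1, 188 and 335. Of 15 leukocyte markers, 4 to 11 and 3 to 9 had a read, with 0.0303% to 0.0983% (median 0.0475%) and 0.00838% to 0.365% (median 0.0500%) of reads, and the median log2 ratio was -1.48 over the 9 of the leukocyte list considered. Neutrophil markers were thus higher in 5546-s by their median share, and the medians of the leukocyte share were close. Both median log2 ratios are over markers whose mean reached 8 in either letter, which a single high cell can bring about. Those ratios are therefore descriptions of the markers that passed and do not measure a difference between the letters. PTPRC, the gene of CD45, had 205 normalized counts in s9 and at most 6.99 in the other 16 cells, and MS4A1, CD79A, LYZ, NKG7 and CD8A were at 0 in 5546-s. Of 11 platelet markers, 1 to 5 and 0 to 2 had a read, and 3 were at 0 in 5546-c and 8 in 5546-s. They took a median of 0.00819% of reads in 5546-c and 0.000295% in 5546-s, beside 0.0123% in cultured cells. Of 11 endothelial and stromal markers, 1 to 5 and 2 to 4 had a read, with medians of 0.00992% and 0.00541%. The part of blood cell RNA, of the mitochondrial share and of the number of genes per cell in the differences between the letters was not tested, and with 1 mouse the letter cannot be told apart from how the cells were handled.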

How the data were processed

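Single-cell RNA-seq values of 17 CTCs of mouse 5546 were used, beside 20 CTCs of 4 other mice and 6 cultured LM2 cells. The authors deposited a normalized signal, which is the reads of a gene over a size factor. Per the labels and the paper, reads were aligned to GRCh38 with STAR 2.7.10a and GENCODE release 38, uniquely mapped reads were counted without strand, size factors came from DESeq2 1.42.1, and CTCs were removed for few uniquely mapped reads or many mitochondrial ones. Dividing by the smallest nonzero value of each cell gave whole numbers for 100% of values (tolerance 0.001), which were used as reads. Since SMARTseq2 reads carry no molecular identifiers, all intervals and floors cover counting error only.

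Genes were called by the rule of size given in the results, with no test, because each letter is 1 sample. Cells were thinned at random without replacement with a fixed seed. Ratios of summed reads carry exact 95% conditional intervals, and the floor for a letter without reads was 3 reads. Names and coordinates came from GENCODE release 44 (25684 of 25739 identifiers matched). Named genes were up to 12 per direction with the largest log2 ratio among genes called in all 3 settings, up to 4 members of each list by mean level and up to 4 called members by log2 ratio, surface markers, and the 10 genes with the highest mean. MKI67, TOP2A, TPX2, CCNB1, CDC20, PLK1 and PTPRC were added after their values were seen, as were all other genes outside that rule. Some called genes are not reported here. The cells and the gene lists were chosen with earlier results of these data known. Python 3.11.15, numpy 2.4.6, pandas 2.3.3 and scipy 1.17.1 were used. The rule of size and the thinning were tested on simulated cells, and the other steps were not. Apart from known changes and numbers of reads, the simulated letters did not differ, so fewer genes per cell in 1 letter was not simulated.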

Additional observations from a re-analysis of the deposited data

Results flagged for a closer look

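Within each letter, cells far from the rest by Dixon's criterion were sought in 111 sets of values, and 32 were found. The limit used flags about 1 in 20 sets of normally distributed values. Counts and shares of reads need not be so distributed, so that rate is no measure of chance here. A cell with the only reads of a gene is flagged by construction. Counts of single genes in single cells are spread widely, and 9 of the 32 are not of that kind, out of 48 such sets examined. Among shares and cell measures, c8 held 30 G2/M genes against at least 49 in the other cells of 5546-c. Cell s1 had 1.04% of reads on replication-dependent histones. Cell s4 had 0.95% on interferon-stimulated genes, 1.80% on TGF-β ligands, receptors and targets and 0.365% on leukocyte markers. Cell c6 had 0.683% on interferon-stimulated genes, c4 had 1.07% on the TGF-β list, s2 had 0.343% on LM2 lung metastasis genes, and s5 had 0.642% on candidate CTC surface markers.

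Among cell cycle genes, normalized counts stood apart for CDK1 in s1 (12.2), AURKA in s2 (2.07), CCNB1 in c5 (2132), CDC20 in s8 (33.2), PLK1 in s1 (64.8), TOP2A in c7 (586) and PTTG1 in c5 (1619). They also stood apart for H4C3 in c1 (1402) and s1 (4745), H3C2 in s1 (93.5), and PCNA in c1 (547) and s8 (1490). Among other genes they did so for ACTL6A in s2 (1.38), RABEPK in s9 (0.539), ENTPD6 in c4 (218), WFS1 in c10 (37.1), VIM in c5 (15505), TIMP3 in s4 (13462), IL6 in c10 (96.8) and EGFR in c7 (137). IFIT2 was highest in c6 (190) and in s4 (3350), and PTPRC was highest in s9 (205).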

How the results depend on the processing

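No paired analysis was possible because no result comes from a test, and the numbers after c and s only name cells. The count of genes called higher in 5546-c (734) became 305 with genes equalised by thinning (331 in a second random draw, added after seeing the data), 284 with genes equalised by rank, 2469 with the median over cells in place of the mean, 70 with a pseudocount of 8, 32 with a minimum mean of 93, and 1636 and 258 at 2-fold and 8-fold. Leaving out single cells gave 628 to 943. The count for 5546-s (19) became 100 (104 in the second draw), 94 by rank, 31 and 1 with a pseudocount of 0.1 and 8, 1 with the minimum of 93, 163 and 0 at 2-fold and 8-fold, and 46 without the 3 cells of high mitochondrial share. Leaving out single cells gave 9 to 34, with 34 without c4, 30 without c9, 9 without s4 and 11 without s8. Genes with no overlap and higher in 5546-c (31) became 5 (4 in the second draw), 3 by rank and 59 without the 3 cells. Those higher in 5546-s (0) became 1 by rank and 1 without the 3 cells. Median genes per cell became 5958 and 3677 at a minimum normalized count of 8, and ranged over 9539 to 9944 and 6426 to 6482 when single cells were left out. G2/M genes called higher in 5546-c (24) became 15 in the second draw with genes equalised, and leaving out single cells gave 19 to 34, with 0 called higher in 5546-s throughout. The cause of these changes was not tested, except that stricter minimums and folds take fewer genes by construction. Of 212 alternatives for lists other than G2/M, 202 moved less than the limit and 10 counts of members called, each of 5 or fewer, moved by more. For median shares of reads the limit was the standard deviation over the cells of the letter, and for counts it was a fixed ratio. Random thinning leaves the expected share of a list unchanged, so shares after thinning could hardly move and are no check of those shares. In cells with fewer genes, a value of 0 at this depth does not show that a gene was off.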

Other observations

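Called genes differed little from the genes considered in their structure. The genes called higher in 5546-c had a median exonic length of 5863 bases and those considered 5295, and 97.7% and 95.5% were protein-coding. Their level did differ, with a median of 27.8 CPM in cultured cells for the genes called and 36.0 for those considered, and 60.3 for the 203 called in all 3 settings. Nuclear-retained lncRNAs varied among the cells of 5546-s. MALAT1, an abundant lncRNA of the nucleus, had 2802, 7304 and 14149 normalized counts in 5546-c and 12.3, 6760 and 18100 in 5546-s, and the lowest cell was s5, which had 0.126% of reads on the list against 0.581% to 2.15% in 5546-c. This gene was among the 10 highest over the 17 cells.

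Among the 20 CTCs of the other 4 mice, the number of G2/M genes with a read followed the number of genes in the cell (Spearman's ρ = 0.600, and 0.533 without the cell with the fewest genes). The share of reads on the G2/M list followed it less (ρ = 0.347 and 0.239). Within mouse 5546, the share gave ρ = 0 over the 9 cells of 5546-c and -0.40 over the 8 cells of 5546-s. These are descriptions over cells that share a mouse.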
